A study of Mus musculus with 8 samples.

Results

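The genes described here are 10 Toll-like receptors, co-receptors and adaptors of mouse neutrophils: the receptors Tlr1, Tlr2, Tlr4, Tlr6 and Tlr13, the lipopolysaccharide co-receptors Cd14 and Ly96, and the signalling proteins Myd88, Irak4 and Irak2. They were chosen by gene symbol, and they are 10 of the 18187 symbols in the deposited count table. All 10 passed the filter on low counts and were tested. Neutrophils linked by the labels to tumors of B16, a mouse melanoma line, were sequenced as bulk RNA in 8 libraries: 3 from the aOX40 treatment group (replicates 1 to 3) and 5 from the IgG treatment group (replicates 2 to 6). By its name aOX40 is an antibody to OX40 (Tnfrsf4), a receptor through which activated T cells receive costimulation, and IgG is taken as its control antibody. The labels do not give mouse strain, age, dose, time or the way the cells were isolated. They also leave unsaid whether the libraries are from separate animals, so the p-values reflect only library-to-library spread, which may be technical.

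Toll-like receptors are membrane receptors of innate immunity that recognise microbial molecules. TLR2 pairs with TLR1 or TLR6 to bind bacterial lipoproteins, TLR4 binds lipopolysaccharide together with MD-2 (the product of Ly96) after CD14 has delivered it, and the mouse receptor TLR13 recognises bacterial ribosomal RNA inside endosomes. All of these receptors signal through the adaptor MyD88, on which the kinases IRAK4, IRAK1 and IRAK2 assemble, and the cascade ends in NF-kB and the transcription of cytokine and chemokine genes. Neutrophils carry most of these receptors and respond to their ligands.

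The 4 members with the largest log2 differences between the groups have these promoter windows, each holding the 250 bases before the RefSeq start of transcription on GRCm38.p6. They are shown because these members lay on opposite sides: in aOX40 the levels of Tlr2 and Tlr13 were the higher ones, and those of Tlr6 and Irak2 the lower ones. Letters run 5′ to 3′ on the strand of the gene, and capitals mark matches to the motifs listed in the next paragraph. The windows are chr3:83841609-83841858 (minus strand) for Tlr2, chrX:106143025-106143274 (plus) for Tlr13, chr5:64960049-64960298 (minus) for Tlr6 and chr6:113638217-113638466 (plus) for Irak2.
Tlr2: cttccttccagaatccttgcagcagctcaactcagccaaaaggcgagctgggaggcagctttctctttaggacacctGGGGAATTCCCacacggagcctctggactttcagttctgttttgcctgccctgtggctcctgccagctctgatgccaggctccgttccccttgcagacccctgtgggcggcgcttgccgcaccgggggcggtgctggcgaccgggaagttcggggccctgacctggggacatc
Tlr13: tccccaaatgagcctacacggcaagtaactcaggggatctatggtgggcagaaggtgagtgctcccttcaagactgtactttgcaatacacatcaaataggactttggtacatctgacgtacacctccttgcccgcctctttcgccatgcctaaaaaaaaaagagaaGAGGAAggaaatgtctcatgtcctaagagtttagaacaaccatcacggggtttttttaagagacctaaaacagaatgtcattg
Tlr6: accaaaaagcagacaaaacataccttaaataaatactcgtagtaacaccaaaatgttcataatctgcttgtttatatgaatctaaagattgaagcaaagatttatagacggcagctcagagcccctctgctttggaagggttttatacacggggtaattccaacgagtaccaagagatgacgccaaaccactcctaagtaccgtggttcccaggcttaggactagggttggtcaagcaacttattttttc
Irak2: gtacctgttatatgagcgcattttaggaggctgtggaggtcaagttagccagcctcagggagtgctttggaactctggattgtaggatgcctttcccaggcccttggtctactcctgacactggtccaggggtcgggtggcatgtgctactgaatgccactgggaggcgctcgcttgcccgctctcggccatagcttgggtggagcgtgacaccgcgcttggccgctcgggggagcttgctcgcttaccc

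RefSeq windows were used for 7 of the 10 members, and Cd14, Ly96 and Tlr4 had none that was used. Both strands were searched for the 10-base NF-kB consensus, the PU.1 core GAGGAA, the C/EBP motif TTGCNNAA, the interferon-gamma-activated site TTCNNNGAA, the core of the interferon-stimulated response element (ISRE) and the AP-1 motif TGANTCA. The Tlr2 window held the NF-kB consensus in 2 overlapping matches, which begin 173 and 172 bases before the start, and 3.9% of all 32851 windows of this length held a match. The Tlr13 window held GAGGAA 83 bases before the start, and the Tlr1 window held it 23 bases before, against 23.3% of all windows. The Myd88 window held overlapping matches to TTCNNNGAA, 46 bases before the start, and to the ISRE core, 40 bases before, which 7% and 3% of all windows held. The RefSeq start of Myd88 lies 1393 bases inside the GENCODE gene, so that this whole window falls within the annotated gene. Of the other 6 starts, that of Irak2 lies at the GENCODE 5′ end. Those of Tlr2 (159 bases), Tlr13 (71), Tlr6 (49), Irak4 (17) and Tlr1 (5) lie inside the gene, so that their windows fall partly within it. No C/EBP or AP-1 match lay in any of the 7 windows, against 9.6% and 6.7% of all windows. The windows of Tlr6, Irak2 and Irak4 held no match to any of the 6 motifs. A match describes the letters in the window and is not evidence that a factor binds there.

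Levels are given as CPM, the count of a gene relative to the library total after scaling between libraries with TMM factors. Library totals were 52.7 to 63.2 M counts in IgG and 69.6 to 73.5 M in aOX40 (M, mega), and 11382 to 12621 genes reached 10 counts in IgG libraries against 12715 to 13339 in aOX40 libraries. Messenger RNA of the mitochondrial genome made up 0.0510 to 0.0811% of counts in IgG and 0.0998 to 0.152% in aOX40. Each of these 3 measures separated the groups (exact two-sided permutation test, p = 0.0357, the smallest that 3 against 5 libraries allow when the smaller tail is doubled), and its part in the results was not tested. The 12 neutrophil markers were all detected and summed to 18995 to 28269 CPM in IgG and 23674 to 28300 CPM in aOX40, a sum in which S100a8 and S100a9 weigh most. Of the 12, 7 had log2 fold changes above 0. In the test 2 rose and 0 fell, against 2.64% and 3.00% of all genes tested. Those that rose were the granule protease genes Mmp8 (349 to 587 CPM in IgG, 704 to 1713 CPM in aOX40, log2 1.19, edgeR adjusted p = 0.0443) and Mmp9 (log2 1.28, adjusted p = 0.0467, with overlap). Camp lay on the other side and did not pass (log2 -1.14, edgeR adjusted p = 0.202). The part of these markers in the results was not tested either. In bulk samples, fewer cells of a type and less RNA per cell cannot be told apart.

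Of the 10 members, 1 rose and 1 fell at an adjusted p of 0.05 (edgeR's quasi-likelihood test with Benjamini-Hochberg adjustment over all 13278 genes tested). Tlr13 was higher in aOX40 and Irak2 was lower. Among all genes tested, 5.65% were called, 2.64% higher and 3.00% lower. In 5 members the CPM ranges of the groups did not overlap: Tlr2, Tlr13 and Irak4 were higher in every aOX40 library than in any IgG library, and Tlr6 and Irak2 were lower. The same held for 16% of all genes tested, 8.22% higher and 7.75% lower. The fitted log2 fold change was above 0 for 7 members and below 0 for 3 (8 and 2 with total counts alone, where Tlr4 stood at 0.18), with a median of 0.38 against 0.05 over all genes tested.

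**Figure D1:**
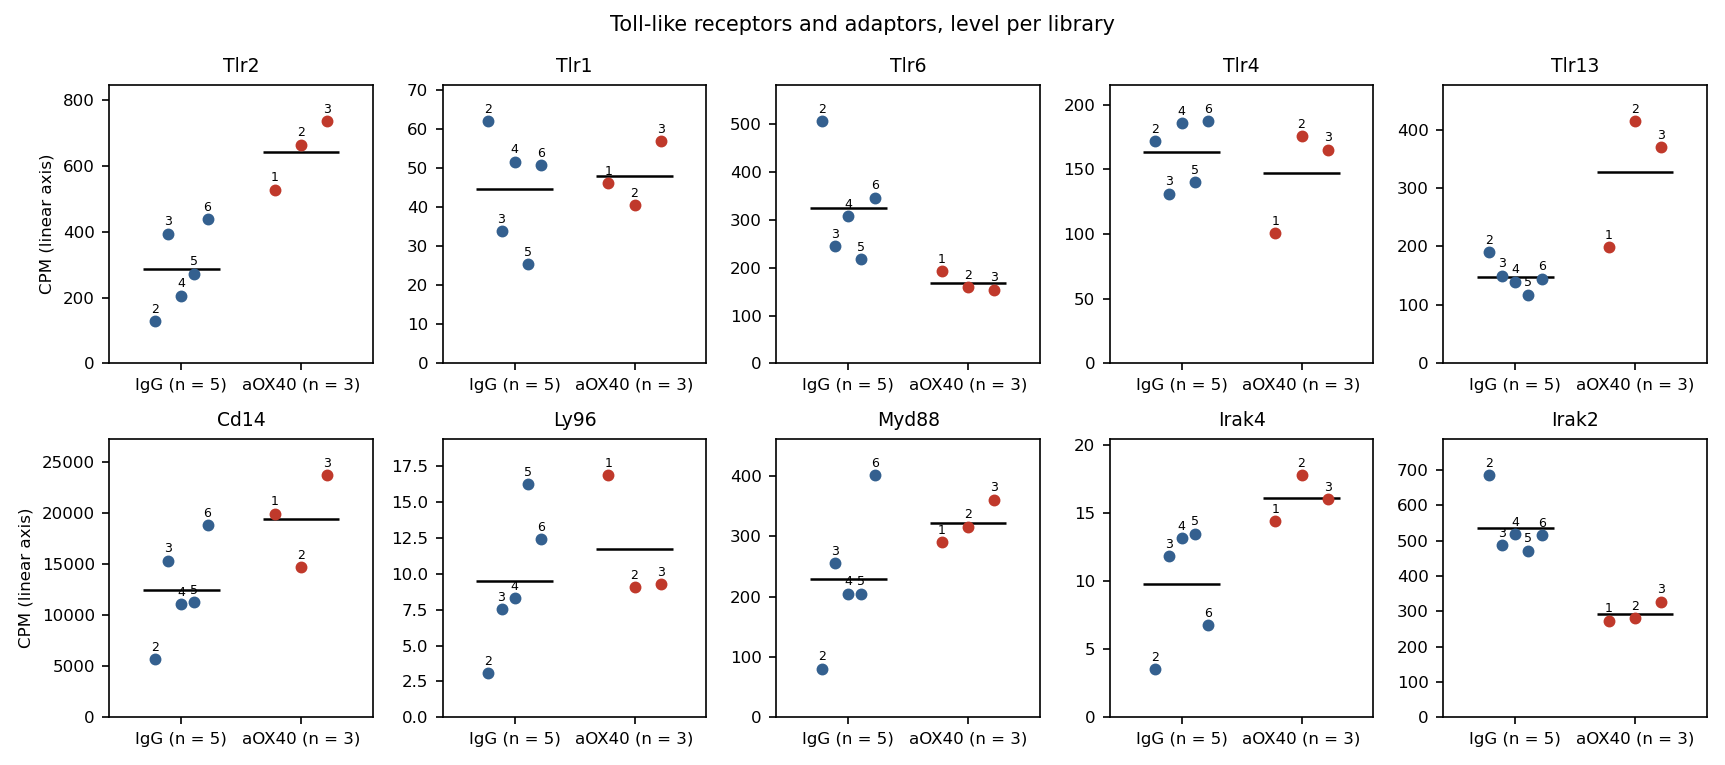
Level of each of the 10 members in every library, in CPM on a linear axis that starts at 0; blue points are IgG libraries, red points are aOX40 libraries, numbers are replicates and bars are group means. Tlr2, Tlr13 and Irak4 in aOX40 sit wholly above IgG, Tlr6 and Irak2 wholly below, and IgG replicate 2 is an end of the IgG range for 9 of the 10 genes.

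The members spanned a wide range of levels. Per kilobase of the longest annotated transcript, Cd14 led in IgG libraries with 7571 ± 3001 CPM per kb (SD, n = 5), followed by Irak2 with 168 ± 27.0. Tlr2 (95.5 ± 42.7), Myd88 (93.4 ± 47.1) and Tlr6 (88.4 ± 30.9 CPM per kb) came next and did not differ beyond their spread. Tlr4 (40.1 ± 6.38) and Tlr13 (36.6 ± 6.51 CPM per kb) lay lower and within each other's spread, as did Tlr1 (14.8 ± 4.89) and Ly96 (14.3 ± 7.52). Irak4 was lowest at 2.84 ± 1.28 CPM per kb. In aOX40 the order was Cd14, Tlr2, Myd88, Irak2, Tlr13, Tlr6, Tlr4, Ly96, Tlr1 and Irak4, so that Irak2 moved from rank 2 to rank 4, Tlr13 from rank 7 to rank 5 and Tlr2 from rank 3 to rank 2. With the union of exons as the length, Irak2 stood at 121 CPM per kb in IgG, still at rank 2, and at 66.6 CPM per kb in aOX40, at rank 5.

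**Figure D2:**
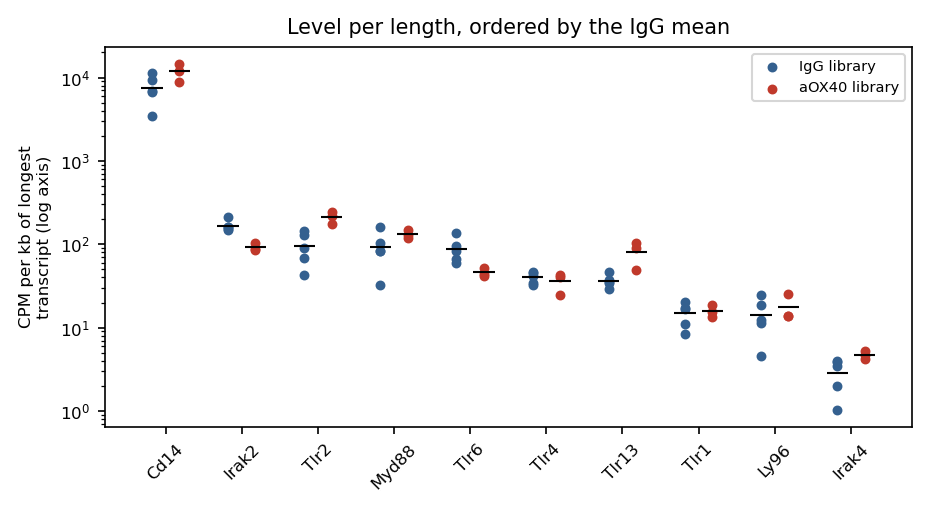
CPM per kilobase of longest transcript for each member on a log axis, ordered by the IgG mean; blue points are IgG libraries, red points are aOX40 libraries and bars are group means. Cd14 stands far above the rest and Irak4 lies at the bottom in both groups.

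Tlr2, the shared chain of the lipoprotein receptors, was higher in each aOX40 library, but the difference did not pass the test. It lies on chromosome 3 (chr3:83836272-83841767, minus strand, GRCm38). Its levels in aOX40 were 527, 664 and 737 CPM in replicates 1 to 3, and in IgG 128, 394, 206, 273 and 438 CPM in replicates 2 to 6. The groups did not overlap: the lowest aOX40 library stood above the highest IgG library, and the IgG libraries spread more than 3-fold. Means were 643 ± 106 CPM (SD, n = 3) and 288 ± 129 CPM (n = 5), a log2 difference of 1.16 (SE 0.34, edgeR adjusted p = 0.0699). The Tlr2 difference passed when libraries were scaled by total counts alone (adjusted p = 0.0341), with a stricter filter (0.0443) and in DESeq2 (0.0261). It did not pass in the other 15 of 18 alternatives, among them all 8 fits with a library left out.

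The partner chains of TLR2 gave other values. Tlr6, the partner for diacylated lipoproteins, had 192, 159 and 154 CPM in aOX40 and 507, 246, 307, 218 and 347 CPM in IgG. Every aOX40 library was below every IgG library, the closest being aOX40 replicate 1 at 192 CPM and IgG replicate 5 at 218 CPM. Means were 169 ± 20.6 CPM (n = 3) and 325 ± 114 CPM (n = 5), a log2 difference of -0.95 (SE 0.28), which did not pass (edgeR adjusted p = 0.0699). The Tlr6 difference passed with the stricter filter (adjusted p = 0.0477) and in DESeq2 (0.0161). It did not pass in the other 16 of 18 alternatives, among them all 8 fits with a library left out. With total counts alone it was smaller (log2 -0.63, edgeR adjusted p = 0.135). Tlr1, the partner for triacylated lipoproteins, had 46.2, 40.5 and 56.9 CPM in aOX40 and 62.0, 33.8, 51.6, 25.4 and 50.8 CPM in IgG. The aOX40 values of Tlr1 fell inside the IgG range, and its log2 difference of 0.10 had a 95% interval from -0.47 to 0.67 (1.96 SE either side).

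Tlr1 and Tlr6 are neighbours on the minus strand of chromosome 5 (chr5:64924679-64933563 and chr5:64952031-64960097) and are close in sequence. Their longest transcripts aligned at 94.9% identity over 1076 bases, and 454 of the 50-base windows were identical in both, which is 15.26% of the windows of Tlr1 and 12.51% of those of Tlr6. The deposited values of Tlr1 carried fractions in 8 libraries and those of Tlr6 in 5, so that the counting may have divided reads between them. The levels of both genes are uncertain to that extent, and its part in the difference was not tested.

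Ratios between partners within a library do not depend on the scaling between libraries, and 7 were compared. The ratio of Tlr6 to Tlr2 was 0.365, 0.240 and 0.209 in aOX40 and 3.96, 0.623, 1.49, 0.800 and 0.792 in IgG. Every aOX40 library was below every IgG library, and IgG replicate 2 was far above the others. This separation had to follow, since Tlr6 was lower and Tlr2 higher without overlap. The p-value with the smaller tail doubled was thus fixed by the single genes. The log2 difference was -2.17 (exact two-sided permutation p = 0.0357, Benjamini-Hochberg adjusted over the 7 ratios 0.0625), and -1.73 without IgG replicate 2. The ratio of Tlr1 to Tlr6 was 0.240 to 0.369 in aOX40 and 0.117 to 0.168 in IgG, again without overlap, with a log2 difference of 1.04 (exact permutation p = 0.0357, adjusted 0.0625). The ratio of Tlr1 to Tlr2 overlapped between the groups, at 0.0610 to 0.0875 in aOX40 and 0.0857 to 0.484 in IgG, with a log2 difference of -1.12 (exact permutation p = 0.0714, adjusted 0.100). These p-values double the smaller tail, so that a raw p cannot go below 0.0357, and none of the 7 ratios passed after adjustment. That convention was adopted after the same test, two-sided by the size of the difference, had been run, with a smallest p of 0.0179. By size, 3 of the 7 passed, namely Tlr6 to Tlr2, Tlr1 to Tlr6 and Irak3 to Irak2 (exact permutation p = 0.0179, adjusted 0.0417 each). Whether they are called thus depends on the convention. The separations of Tlr6 to Tlr2 and Irak3 to Irak2 had to follow from the single genes, so these calls are no separate support. Tlr1 to Tlr6 was adjusted together with them, so its adjusted value depends on them too.

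**Figure D3:**
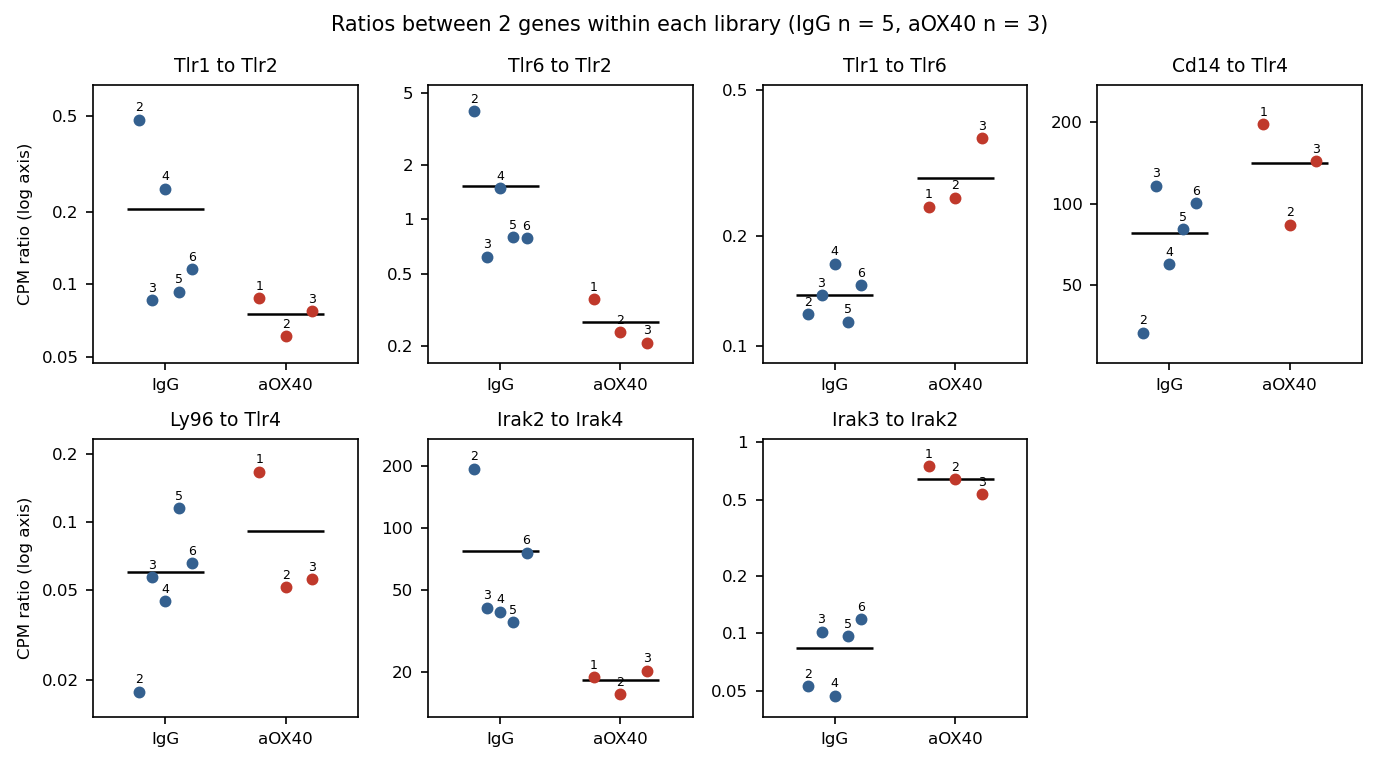
CPM ratio of 2 genes within each library on log axes; blue points are IgG libraries, red points are aOX40 libraries, numbers are replicates and bars are arithmetic means. The ratios Tlr6 to Tlr2 and Irak2 to Irak4 lie below the whole IgG range in all 3 aOX40 libraries, and Tlr1 to Tlr6 and Irak3 to Irak2 lie above it.

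The lipopolysaccharide receptor genes did not pass the test. Tlr4 (chr4:66827584-66930284, plus strand) had 101, 176 and 165 CPM in aOX40 and 172, 131, 186, 140.3 and 188 CPM in IgG. Only aOX40 replicate 1 lay outside the IgG range of Tlr4, below it, and the log2 difference was -0.15 (95% interval -0.60 to 0.31, edgeR adjusted p = 0.744). Ly96, whose product MD-2 holds the lipid on TLR4, was sparse: 16.9, 9.07 and 9.26 CPM in aOX40 and 3.06, 7.51, 8.30, 16.2 and 12.4 CPM in IgG. The Ly96 groups overlapped, with a log2 difference of 0.27 (95% interval -0.59 to 1.14, edgeR adjusted p = 0.749).

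Cd14, the co-receptor that passes lipopolysaccharide to TLR4, was among the abundant transcripts of these libraries. Its levels were 19911, 14698 and 23703 CPM in aOX40 and 5696, 15307, 11057, 11289.8 and 18771 CPM in IgG. The groups overlapped, since aOX40 replicate 2 lay below IgG replicates 3 and 6, and the log2 difference of 0.65 (SE 0.33) did not pass (edgeR adjusted p = 0.252). As an unscaled share of all counts, Cd14 took 1.86 to 2.59% in aOX40 and 0.512 to 1.68% in IgG, which did not overlap (exact two-sided permutation p = 0.0357). With total counts alone edgeR did not call Cd14 (log2 0.93, adjusted p = 0.0845). On that scale 8643 of the 13278 genes tested were above 0. The direction was the same on both scales, and the TMM factors, at 1.07 to 1.27 in aOX40 and 0.874 to 0.984 in IgG, account for the difference between them. The ratio of Cd14 to Tlr4 was 83.5 to 197 in aOX40 and 33.2 to 117 in IgG (log2 difference 0.90, exact permutation p = 0.107, adjusted 0.125). That of Ly96 to Tlr4 was 0.0515 to 0.167 and 0.0178 to 0.116 (log2 difference 0.62, exact permutation p = 0.429).

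Tlr13, the endosomal receptor for bacterial ribosomal RNA, rose in aOX40. It lies on chromosome X (chrX:106143204-106160493, plus strand). It had 199, 415 and 369 CPM in aOX40 and 190.3, 150.3, 139.6, 118 and 145 CPM in IgG. Replicates 2 and 3 of aOX40 were far above all IgG libraries, while aOX40 replicate 1 was only just above IgG replicate 2. Means were 328 ± 114 CPM (n = 3) and 149 ± 26.4 CPM (n = 5), a fitted difference of 2.21-fold (log2 1.14, SE 0.25, edgeR adjusted p = 0.0307). The Tlr13 call was lost without aOX40 replicate 2 (adjusted p = 0.167), aOX40 replicate 3 (0.104), or IgG replicate 3 (0.0549), 4 (0.0524), 5 (0.055) or 6 (0.0571), and it was lost with the older quasi-likelihood setting of edgeR (0.0533), while the log2 difference stayed between 0.94 and 1.47 over all 18 alternatives.

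Myd88, the adaptor on which the receptors converge, did not pass the test. Its levels were 290.2, 316 and 360.1 CPM in aOX40 and 80.8, 256, 205, 205 and 401 CPM in IgG. IgG replicate 6 lay above all aOX40 libraries and the other IgG libraries lay below them, and the log2 difference was 0.49 (95% interval -0.25 to 1.23, edgeR adjusted p = 0.458). Exons of Myd88 overlap those of Acaa1a on the other strand over 290 bases, and whether the counting used strand is not stated in the labels. Irak4, the kinase that MyD88 recruits and that starts the cascade, had 14.4, 17.8 and 16.1 CPM in aOX40 and 3.55, 11.8, 13.2, 13.5 and 6.80 CPM in IgG. The Irak4 groups did not overlap, by a margin of under 1 CPM, and the log2 difference of 0.71 (SE 0.37) did not pass (edgeR adjusted p = 0.262). The longest Irak4 transcript shares stretches with Twf1, whose exons overlap it on the other strand, and with Gm4887, so its low counts are uncertain.

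Irak2, a kinase of the MyD88 complex that acts after IRAK4, fell in aOX40. It lies on chromosome 6 (chr6:113638467-113695026, plus strand). It had 273, 281 and 327 CPM in aOX40 and 686, 487, 518, 472 and 516 CPM in IgG. The groups were well apart, with 327 CPM as the highest aOX40 value and 472 CPM as the lowest IgG value. Means were 294 ± 29.2 CPM (n = 3) and 536 ± 86.3 CPM (n = 5), fitted as 1.82-fold lower (log2 -0.87, SE 0.19, edgeR adjusted p = 0.0312). The Irak2 call was lost without aOX40 replicate 1 (adjusted p = 0.069), 2 (0.151) or 3 (0.0833), without IgG replicate 3 (0.0503) or 6 (0.0556), and with total counts alone (log2 -0.56, adjusted p = 0.0764), while the log2 difference stayed between -0.94 and -0.56 over all 18 alternatives.

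Other annotated sequences touch Irak2. The gene model Gm43963 lies on the opposite strand within Irak2 (chr6:113676732-113679219), shares 196 exon bases with it, and had 7.21 to 11.1 CPM in aOX40 and 24.3 to 82.4 CPM in IgG (log2 -2.29, SE 0.42, edgeR adjusted p = 0.0173). Both fell together, and reads of the pair may not be told apart without strand. Gm7229 aligned to the longest Irak2 transcript at 95.8% identity over 645 bases and stood at 4.32 to 7.49 CPM in aOX40 and 4.80 to 12.0 CPM in IgG. A short repeat in that transcript is shared with 416 further genes, each covering less than 9% of it. These genes are not listed here, and their part in the Irak2 counts was not tested. The deposited Irak2 values carried fractions in all 8 libraries.

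Ratios between the Irak kinases were compared in the same way. The ratio of Irak2 to Irak4 was 18.9, 15.8 and 20.4 in aOX40 and 193, 41.1, 39.4, 34.9 and 75.9 in IgG. All aOX40 libraries were below all IgG libraries, with a log2 difference of -1.74 (exact two-sided permutation p = 0.0357, adjusted 0.0625) and -1.32 without IgG replicate 2. The ratio of Irak3 to Irak2 was 0.747, 0.642 and 0.535 in aOX40 and 0.0529, 0.102, 0.0471, 0.0962 and 0.119 in IgG. Irak3 encodes IRAK-M, a member of the family that restrains the complex. Here too the groups were wholly apart, with aOX40 higher by 3.03 on the log2 scale (exact permutation p = 0.0357, adjusted 0.0625). Both separations had to follow from the single genes, since Irak2 was lower and Irak3 and Irak4 were higher without overlap. The p-values of these ratios, with the smaller tail doubled, are therefore no further test.

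Over the 8 libraries, the genes whose log2 CPM was most like that of Tlr13 among 4941 genes with a mean of at least 10 CPM were Copa (Pearson r 0.96, Spearman rho 0.90), Smad2 (0.95, 0.88) and App (0.95, 0.93). Those most like Irak2 were Tspyl1 (r 0.99, rho 0.88), Stxbp5 (0.99, 0.88) and 4931440P22Rik (0.99, 0.90). These values are a description over 8 libraries that share the 2 groups and the same scaling. Of the 6, App rose (log2 0.84, edgeR adjusted p = 0.0445), and Tspyl1 (-0.98, 0.0347), Stxbp5 (-1.47, 0.0156) and 4931440P22Rik (-1.10, 0.0310) fell. Copa (0.79, 0.110) and Smad2 (1.17, 0.0543) did not pass.

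The rest of the pathway was read from 8 lists of 80 genes grouped by role, of which 73 were in the table and 69 were tested. Of these 69 genes, 4 rose and 2 fell, against 2.64% and 3.00% of all genes tested, and their median log2 fold change was 0.13 against 0.05. The genes called were the brakes Irak3, Tnip1 and Trim30a, the kinase Ikbke, and the chemokines Cxcl1 and Cxcl3.

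**Figure D4:**
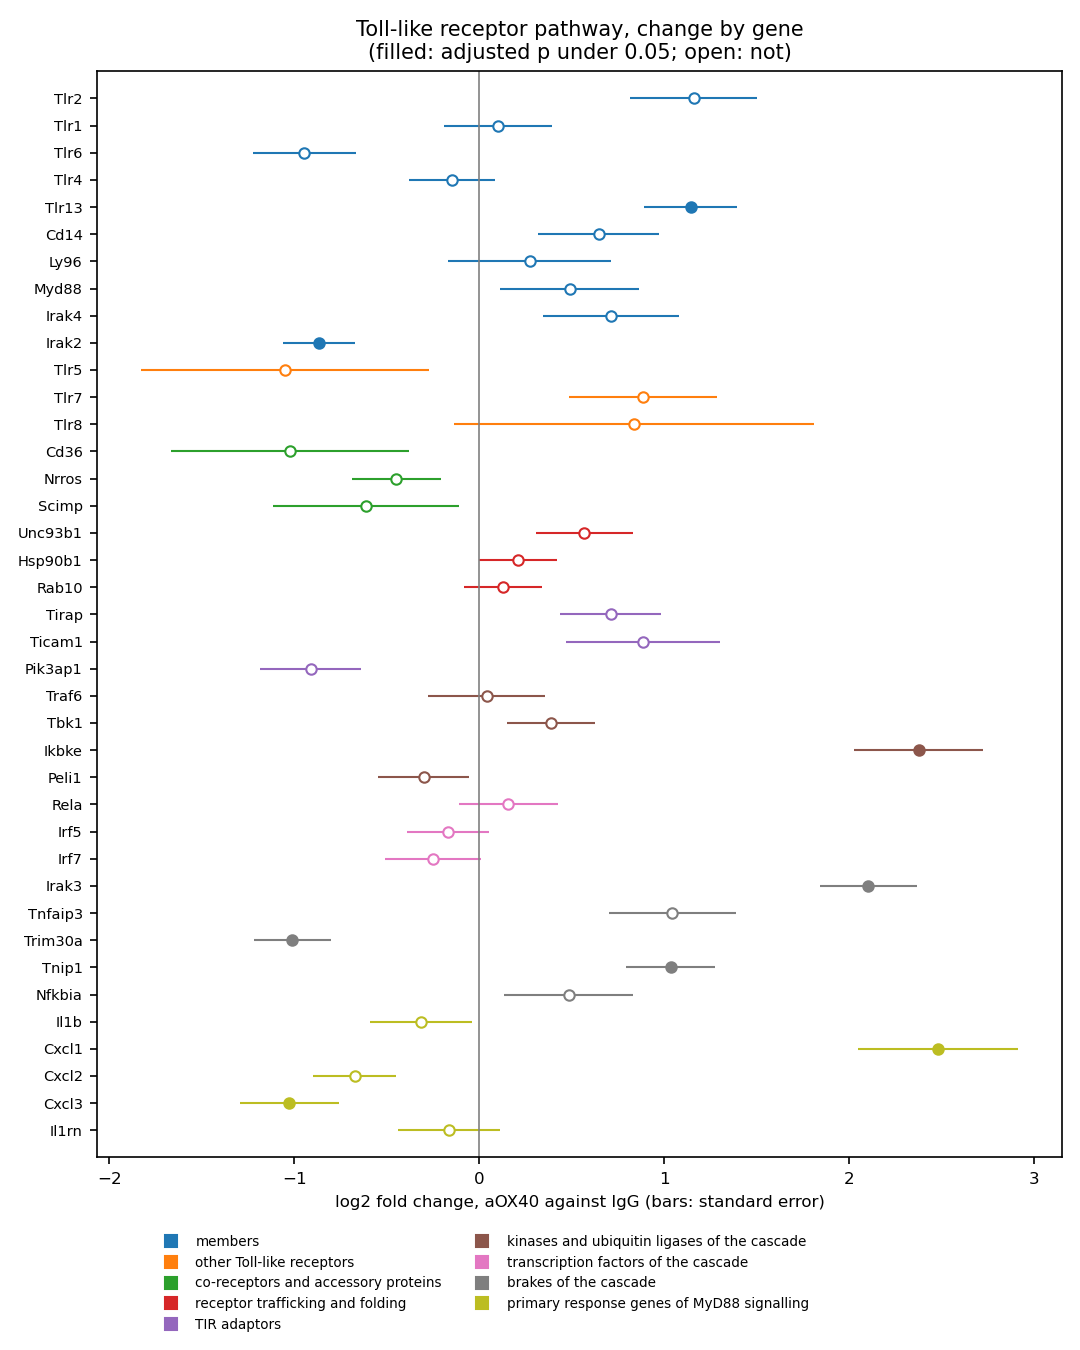
Fitted log2 fold change, aOX40 against IgG, of the 10 members and of the named genes of the other pathway lists, with standard errors as bars; colours are lists, filled points passed an adjusted p of 0.05 and open points did not. Filled points lie on both sides of 0, from Cxcl1 at 2.48 to Cxcl3 at -1.03.

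Upstream of MyD88, no gene of the other receptor lists passed the test. The further Toll-like receptors were near the floor: Tlr7, a receptor for single-stranded RNA, stood at 6.42 ± 1.33 CPM (n = 3) in aOX40 and 3.50 ± 1.45 CPM (n = 5) in IgG, Tlr5 and Tlr8 were below 6 CPM in every library, and Tlr3 was too low to be tested. All 5 tested co-receptors and accessory proteins had log2 fold changes below 0 (4 of 5 with total counts alone), the most abundant being Nrros at -0.45 (adjusted p = 0.280). Over all 13278 genes tested, 6927 were above 0 and 6351 below, and with total counts alone 8643 were above. All 7 genes of receptor trafficking and folding had log2 fold changes above 0 under each of the 4 scalings, though none passed. Among them Unc93b1, which carries nucleic acid receptors such as TLR13 to endosomes, had 169.7 to 276 CPM in aOX40 and 84.5 to 174 CPM in IgG (log2 0.57, SE 0.26, edgeR adjusted p = 0.208). Hsp90b1, the chaperone of the receptors, stood at 0.21, and Rab10, a small GTPase of TLR4 transport, at 0.13.

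None of the 4 tested TIR domain adaptors other than Myd88 passed. Ticam1 was higher and Pik3ap1 lower without overlap, which held for 8.22% and 7.75% of all genes tested. Pik3ap1, also called BCAP, which links the receptors to phosphoinositide 3-kinase, had 492, 591 and 937 CPM in aOX40 and 1848, 1211, 1036, 1168 and 1069 CPM in IgG. The aOX40 values of Pik3ap1 were all lower, by 0.91 on the log2 scale (SE 0.27, edgeR adjusted p = 0.0721), and IgG replicate 2 stood far above the rest. Tirap, which brings MyD88 to TLR2 and TLR4, had a log2 fold change of 0.71 (adjusted p = 0.140), and Ticam1, the TRIF adaptor of TLR3 and TLR4, one of 0.88 at about 1.45 to 3.76 CPM (adjusted p = 0.216).

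Of the 16 tested kinases and ubiquitin ligases, 1 rose and 0 fell, against 2.64% and 3.00% of all genes tested. Ikbke, a non-canonical IkB kinase that phosphorylates interferon regulatory factors, had 58.6, 61.5 and 83.9 CPM in aOX40 and 11.7, 15.5, 4.09, 17.8 and 16.1 CPM in IgG. The lowest aOX40 value was more than 3 times the highest IgG value, and the fitted difference was 5.19-fold (log2 2.38, SE 0.35, edgeR adjusted p = 0.00996). Its sister kinase Tbk1 had a log2 fold change of 0.39 (adjusted p = 0.347), the ubiquitin ligase Traf6 one of 0.04 (0.956) and Peli1, a ligase of the IRAK complex, one of -0.30 (0.484). None of the 5 transcription factors passed: Rela stood at 0.16, Irf5 at -0.17 and Irf7 at -0.25 on the log2 scale, and with total counts alone 4 of the 5 were above 0.

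Among 11 tested brakes of the cascade, 2 rose and 1 fell, against 2.64% and 3.00% of all genes tested. Irak3 had 204, 180.4 and 175 CPM in aOX40 and 36.3, 49.6, 24.4, 45.4 and 61.2 CPM in IgG. The aOX40 libraries were close together and all far above IgG, a fitted 4.30-fold difference (log2 2.10, SE 0.26, edgeR adjusted p = 0.00815). Exons of Irak3 overlap those of Tmbim4 on the other strand over 192 bases, and Tmbim4 itself had a log2 fold change of -0.07 (adjusted p = 0.908). Tnip1, which works with the deubiquitinase A20 against NF-kB, had 70.7, 73.1 and 111 CPM in aOX40 and 31.4 to 49.9 CPM in IgG, a log2 difference of 1.03 (SE 0.24, edgeR adjusted p = 0.0369). Trim30a, a ligase that lowers TAB proteins, had 188, 125 and 185 CPM in aOX40 and 294 to 395 CPM in IgG, a log2 difference of -1.01 (SE 0.21, edgeR adjusted p = 0.0248). Neither pair of groups overlapped. Tnfaip3, the gene of A20, was higher on average but overlapped (218 to 583 against 119 to 250.5 CPM, log2 1.04, adjusted p = 0.0953). Nfkbia, the IkB-alpha gene, stood at 0.48 (adjusted p = 0.424). Tollip was lower without overlap (51.5 to 71.4 against 77.6 to 145 CPM, log2 -0.74) and did not pass (edgeR adjusted p = 0.0895). Tollip was named after its values were seen. In all, 2 of the 11 were higher without overlap and 2 lower, against 8.22% and 7.75% of all genes tested.

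The 18 tested primary response genes of MyD88 signalling had no common direction. In the test 1 rose and 1 fell, against 2.64% and 3.00% of all genes tested. By sign, 10 were above 0 and 8 below (9 and 9 with upper quartile factors, 12 and 6 with total counts alone). Cxcl1, a chemokine that draws neutrophils through CXCR2, had 55.6, 35.9 and 115 CPM in aOX40 and 5.11, 11.9, 9.58, 13.1 and 21.3 CPM in IgG. The groups did not overlap and the fitted difference was 5.58-fold (log2 2.48, SE 0.43, edgeR adjusted p = 0.0153). Its relative Cxcl3, present at far higher levels, went the other way, with 3987, 2274 and 2785 CPM in aOX40 and 8265, 5158, 5449, 7341 and 4509 CPM in IgG (log2 -1.03, SE 0.27, edgeR adjusted p = 0.0490). Every aOX40 library was below every IgG library for Cxcl3. Cxcl2, another CXCR2 ligand, was also lower without overlap (9403 to 16682 against 18011 to 26098 CPM, log2 -0.67), but did not pass (adjusted p = 0.100). On the other side, Tnf (285 to 507 against 26.4 to 194 CPM, log2 1.56, edgeR adjusted p = 0.0705) and Csf3 (128 to 209 against 0 to 78.0 CPM, log2 2.81, 0.0733) were higher without overlap and did not pass, nor did Il10, with overlap (log2 1.80, 0.0754). These 3 were named after their values were seen. In all, 3 of the 18 were higher without overlap and 2 lower, against 8.22% and 7.75% of all genes tested. Il1b (log2 -0.31, adjusted p = 0.521) and Il1rn, its receptor antagonist (-0.16, 0.760), did not pass.

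**Figure D5:**
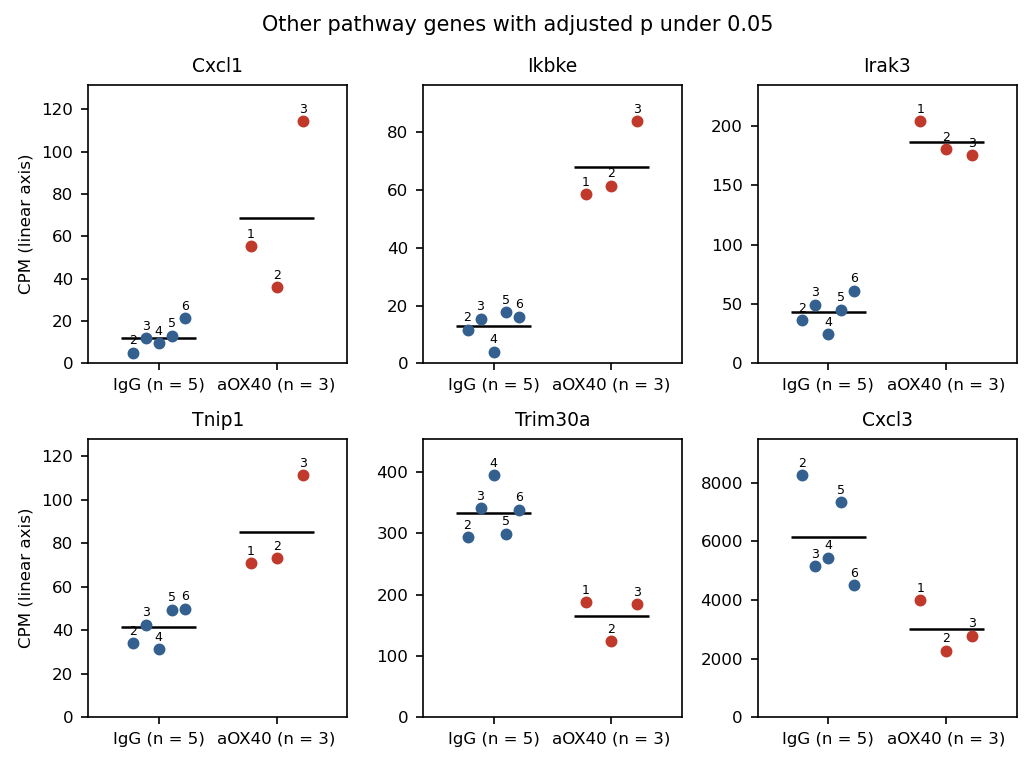
Level of the 6 other pathway genes with an adjusted p under 0.05 in every library, in CPM on linear axes that start at 0; blue points are IgG libraries, red points are aOX40 libraries, numbers are replicates and bars are group means. In each panel the groups do not overlap, with Cxcl1, Ikbke, Irak3 and Tnip1 higher and Trim30a and Cxcl3 lower in aOX40.

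These 6 calls rest on few libraries. Without aOX40 replicate 2 none of the 6 passed, with adjusted p of 0.0558 for Irak3, Ikbke and Cxcl1, 0.119 for Tnip1, 0.134 for Trim30a and 0.207 for Cxcl3. Without aOX40 replicate 3 only Irak3 passed (adjusted p = 0.0433), and Ikbke had 0.0503, Cxcl1 0.0691, Trim30a 0.0766, Cxcl3 0.140 and Tnip1 0.141. Tnip1 also failed without aOX40 replicate 1 (0.0501) and IgG replicates 2 (0.0584), 3 (0.0603) and 4 (0.0562), and Cxcl3 without each of the IgG replicates (0.0542 to 0.0831) and with total counts alone (log2 -0.75, adjusted p = 0.0764). Without a filter on low counts Tnip1 (0.0579) and Cxcl3 (0.0504) failed, with the older setting of edgeR both failed (0.0583 and 0.0863), and with the robust setting Cxcl3 did (0.0518).

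Markers of other cell types were read beside these results. The 11 macrophage and monocyte markers in the table summed to 381 to 731 CPM in IgG and 552 to 794 CPM in aOX40 (exact two-sided permutation p = 0.179). Ly6c2, at 307 to 656 CPM in IgG and 397 to 686 CPM in aOX40, made up most of that sum, and 8 of the 10 tested had log2 fold changes above 0. Of these, Adgre1 rose (2.13 to 8.55 CPM in IgG, 14.5 to 26.8 CPM in aOX40, log2 1.81, edgeR adjusted p = 0.0248), and Csf1r was higher without overlap but did not pass (log2 1.54, adjusted p = 0.0546). The complement genes C1qa, C1qb and C1qc, which mark macrophages, were at most 1.89 CPM in any library. Fibroblast and endothelial markers summed to 8.92 to 59.9 CPM in IgG, highest in replicate 2, and to 4.45 to 8.45 CPM in aOX40, and dendritic cell markers to 36.6 to 60.5 CPM in IgG and 24.0 to 35.1 CPM in aOX40 (exact permutation p = 0.0357 for each). The fibroblast and endothelial sum, of 4 markers in the table, came mostly from Col1a1 and Pecam1. Col1a1 fell (3.42 to 32.4 CPM in IgG, 1.22 to 2.21 CPM in aOX40, log2 -3.09, edgeR adjusted p = 0.0414). Pecam1 did not pass (log2 -1.57, adjusted p = 0.110). The dendritic cell sum came mostly from Itgax (22.3 to 39.5 CPM in IgG, 10.8 to 18.6 CPM in aOX40) and Bst2, and Flt3, Zbtb46, Xcr1 and Clec9a were each at most 3.58 CPM in any library. B cell markers were at most 0.861 CPM in sum, T and NK cell markers at most 3.70 CPM, and melanoma markers at most 15.4 CPM. Their part in the differences of Tlr13, Irak2 and the other genes was not tested.

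IgG replicate 2 stood at an end of the IgG range for 9 of the 10 members, lowest for 5 and highest for 4. It did so for 44.7% of all genes tested, more than any other IgG library. Without it Tlr13 (log2 1.25, edgeR adjusted p = 0.0323) and Irak2 (log2 -0.76, adjusted p = 0.0401) were still called, and the same 5 members did not overlap.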

How the data were processed

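Gene levels came from the deposited table of estimated counts per gene symbol (18187 symbols, 8 libraries), whose values the authors left without scaling. According to the submitters' processing notes, STAR 2.6.0, Subread and featureCounts 1.5.1 were used with the genome build mm10; the annotation, the use of strand and the cause of fractional values (63.4% were whole within 0.01) are not stated there. Some of the largest values, 4 of Cd14 among them, are printed with 3 significant digits. Groups and replicate numbers came from the sample titles. The lowest row total was 10 counts.

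Counts were rounded, filtered with filterByExpr by group, scaled with TMM factors and compared with edgeR 4.0.16 (limma 3.58.1, R 4.3.3), quasi-likelihood test with group as the only term, with Benjamini-Hochberg adjustment over the 13278 genes tested. The newer quasi-likelihood setting of edgeR was used, as in earlier processing of these data. This choice was made after the older setting had also been run, and Tlr13 passes in the newer setting but not in the older. Intervals are 1.96 SE either side. Within-library ratios were compared with exact two-sided permutation tests over all 56 arrangements, doubling the smaller tail. Their summary as a count of ratios without overlap was chosen after the values were seen, as was that tail convention; by the size of the difference, 3 of the 7 ratios passed after adjustment, and none with the doubled tail. Members and lists were chosen with earlier results of these data known. Named genes were all members, and of each list the genes called and the 3 with the highest mean CPM, and the 3 genes most correlated with each called member; other genes named, such as Gm43963, were chosen after their values were seen.

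Positions and transcripts came from GENCODE M21 (GRCm38, that is mm10). Transcripts were compared with BLAST+ 2.17.0 (at least 80% identity over 100 bases, and 9% of the transcript covered, the last set after the matches were seen). Promoter windows came from RefSeq on GRCm38.p6. Alternatives were other scalings and filters, DESeq2 1.42.0, limma voom, each library left out, the replicate number as a block, a prior of 1 CPM for ratios and exon union lengths; 2 other edgeR settings and the repeats of the non-overlap count were added after the data were seen. The procedure was tested on simulated data.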

Additional observations from a re-analysis of the deposited data

Results flagged for a closer look

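In 46 groups of 5 IgG values (members, named pathway genes and ratios), 6 had a library further from the others than Dixon's 95% critical value of 0.71 allows, where chance gives about 1 in 20. IgG replicate 2 was the library in 5 of the 6. Its Irak2 level was 686 CPM with the next at 518 CPM, its Pik3ap1 level 1848 CPM with the next at 1211 CPM, and its Traf6 level 91.8 CPM with the next at 49.0 CPM. Its ratio of Tlr6 to Tlr2 was 3.96 with the next at 1.49, and its ratio of Irak2 to Irak4 was 193 with the next at 75.9. The Tlr8 level of IgG replicate 4 was 2.46 CPM with the next at 0.522 CPM.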

How the results depend on the processing

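Over all genes, 750 were called (351 higher, 399 lower). The count was 452 without a filter, 1629 in DESeq2, 320 with the older setting of edgeR, and 0 to 589 with each library left out in turn (0 without aOX40 replicate 2, with 2230 genes at an unadjusted p under 0.05; 59 without aOX40 replicate 3; 497 without IgG replicate 3; 475 without IgG replicate 6). With total counts alone 78.0% of 1120 calls were higher, against 46.8%, and the median of all genes shifted by 0.30 (log2); with DESeq2 36.6% and with the older setting 34.1% were higher. Of the members, 4 were called with the stricter filter and 4 in DESeq2, 1 with the older setting (Irak2), and 0 to 2 with each library left out. Of the other pathway genes, 13 were called in DESeq2 and 0 to 5 with each library left out. Ratios without overlap numbered 4 to 5 and members without overlap 5 to 6 under all alternatives run.

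Only replicate numbers 2 and 3 occur in both groups. No label says that they mark pairs, so the numbers were not taken as pairs. Deviations from the group mean correlated at r = 0.0224 and 0.0469 between same-numbered libraries, and at -0.0442 to 0.0307 between the others. With 2 shared numbers this check could not decide whether libraries were paired. With the replicate block, 0 genes (2594 at an unadjusted p under 0.05), 0 members and 0 other pathway genes were called in edgeR.

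Tlr13 was called in 10 and Irak2 in 11 of 18 alternatives, Tlr2 in 3 and Tlr6 in 2, all with the same sign. Tlr1, Tlr4 and Ly96 changed sign in 2, 3 and 1. Per kb of exon union, Tlr4 in IgG fell to 29.4 and Irak4 in aOX40 to 3.21 CPM per kb, beyond 1 SD. Irak2 did so in both groups, falling to 121 CPM per kb in IgG and 66.6 in aOX40. The 3 aOX40 libraries, and genes under about 10 CPM such as Ly96, limit what could be detected.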
